A study of Mus musculus with 3 samples.

Results

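Integrins and focal adhesion proteins were followed as a set of 46 genes, listed by name for their place in the adhesion between a cell and its matrix; the rule used no measured value, but the list was drawn up with earlier results of these data known. The set holds 15 integrin chains, of which 12 are alpha and 3 are beta chains, and 31 genes for adaptor, kinase, actin-crosslinking and LIM domain proteins. All 46 were among the 56833 genes of the deposited table. A mean of at least 50 normalized counts over the 3 libraries was required before a ratio was counted, and 45 of the 46 members and 11873 genes in all met it. The member that did not was Itga10.

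Integrins are heterodimers of an alpha and a beta chain that bind collagens, laminins, fibronectin and other matrix proteins outside the cell. Inside the cell, talin and kindlin bind the beta chain's tail, vinculin and alpha-actinin tie the complex to actin, and kinases such as FAK and Src signal from it. Adhesions enlarge and recruit LIM domain proteins when the actin cytoskeleton pulls on them, which makes them a main site at which adherent cells such as fibroblasts sense how stiff their surroundings are.

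The cells came from the ankle synovium of mice with the genotype Efhd1CreER; Ai9, in which a tamoxifen-inducible Cre driven from Efhd1 switches on tdTomato, and they were sorted as tdTomato+. The labels call them telocytes. After the sort they were cultured for 24 h on collagen-coated CytoSoft plates, the soft ones of 0.2 kPa, the intermediate ones of 8 kPa and the stiff ones of 64 kPa, with all 3 groups sharing the genotype, the coating and the DMEM and F12 medium. The study asked how matrix stiffness acts on the differentiation of these cells. The number of mice, their age, and whether animals were pooled are not given in the sources used here.

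Each level was sequenced as 1 library, so no value here has a replicate check, no p-value was computed, and a difference between cultures cannot be told apart from a difference between stiffness levels. The libraries held 25487064 (soft), 28081600 (intermediate) and 26474862 (stiff) reads in genes. Differences are log2 ratios of normalized counts after adding 1 to each. The interval in brackets is an exact 95% Clopper-Pearson interval from the reads of the 2 libraries compared, and it covers counting error only. A ratio of at least 0.5 in size is called higher or lower by at least 0.5, and the share of all 11873 genes that reach the same mark stands beside each comparison's first count of members. A corrected ratio is one from which the local trend of all genes' ratios with transcript length and GC content was subtracted. Levels are compared between genes only as normalized counts per kilobase of the canonical transcript. In bulk RNA, fewer cells of a type and less RNA per cell cannot be told apart.

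Markers of the sorted cells were checked first, since the results rest on what the cultures held. Efhd1 itself had 10, 5 and 3 reads in the soft, intermediate and stiff library. Pdgfra, a receptor of fibroblasts and telocytes, stood at 5884, 6298 and 5118 normalized counts. Cd34 was highest on stiff, with 235, 242 and 318, and Foxl1 lowest there, with 238, 233 and 186. Kit lay between 38.7 and 45.1. None of the 5 endothelial markers reached the minimum mean, and their sum was at most 52.3. Macrophage markers were abundant: 12 of 12 were measured, and they summed to 30259 normalized counts on soft, 37395 on intermediate and 65543 on stiff. All 12 were higher in the stiff than in the soft library, 11 of them by at least 0.5. Integrin chains of leukocytes, 7 genes outside the set, summed to 2591, 3471 and 5660. Leukocyte transcripts thus moved in the same direction as most members, and their part in the members' ratios was not tested.

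Most of the set was higher on the stiff plate than on the soft plate. Of the 45 members tested, 42 (93.3%) had a ratio above 0, against 51.1% of all genes. By at least 0.5, 25 members (55.6%) were higher, against 11.8% of all genes, and 1 (2.22%) was lower, against 3.77%. By at least 1, 7 members (15.6%) were higher, against 3.22%, and 0 were lower, against 0.387%. Those 7 were Itga4, Tln1, Zyx, Flnc, Actn1, Fhl1 and Svil. The median ratio of the members was 0.53, with a range from -0.82 to 1.85, and that of all genes was 0.0049. The 3 members below 0 were Itgb3, Itga2 and Lims1. In the plot of all members' ratios by role, the actin crosslinkers have a median of 1.08, or 0.53 corrected, and the beta chains one of 0.02, or -0.17 corrected.

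**Figure D1:**
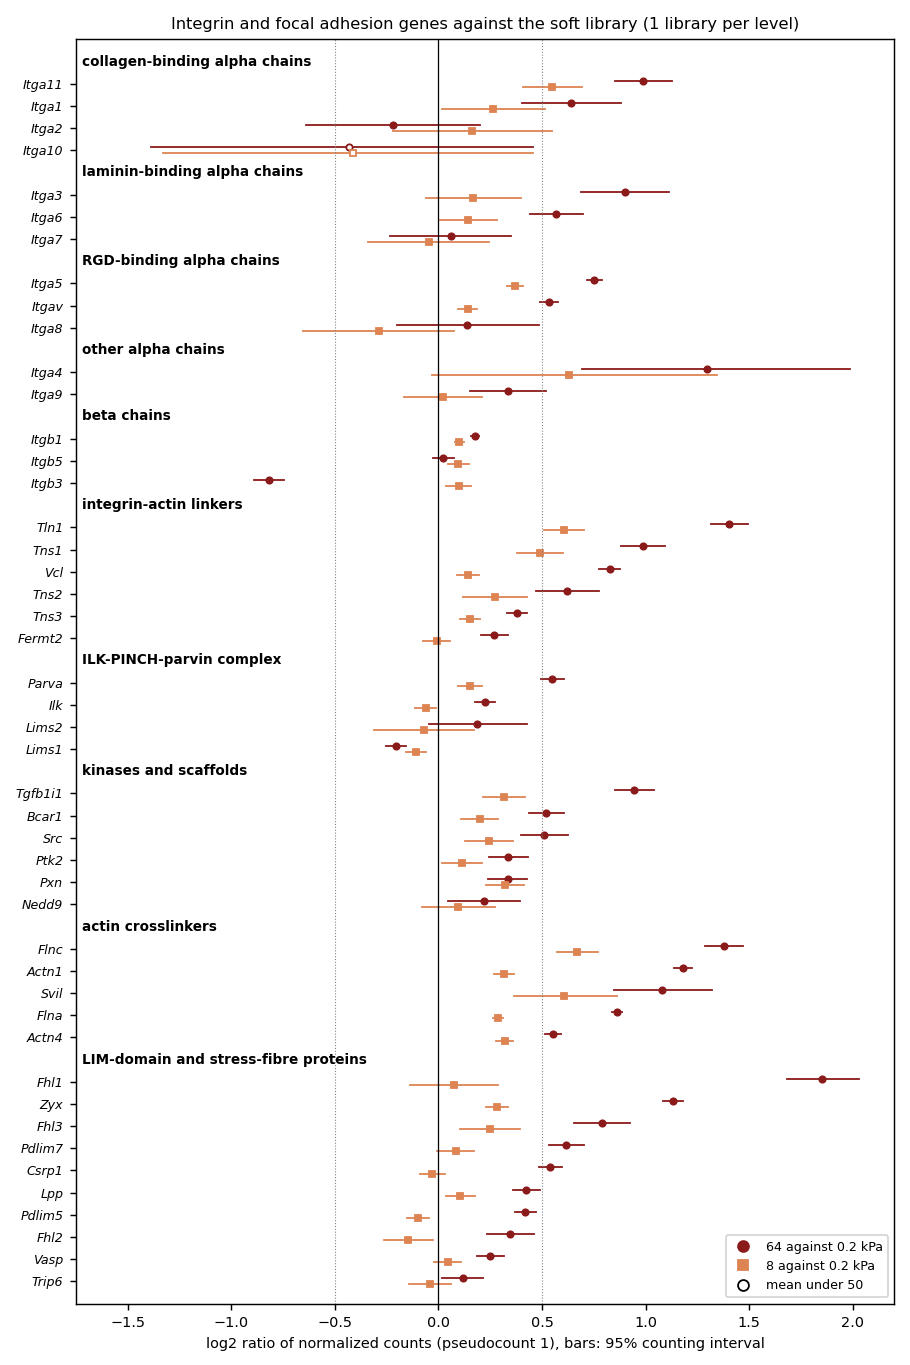
Log2 ratio of normalized counts of the stiff (64 kPa, circles) and intermediate (8 kPa, squares) library against the soft library (0.2 kPa) for the 46 members, grouped by role; bars are 95% counting intervals, dotted lines mark 0.5 in either direction, and open symbols mark Itga10, whose mean is under 50. Of the 45 members tested, 42 circles lie above 0, and Itgb3 at -0.82 is the lowest of the 45.

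Among the beta chains, Itgb3 was the only member of the set that was lower on stiff than on soft by at least 0.5. It pairs with Itgav to form a receptor for vitronectin and fibronectin, and with Itga2b on platelets. It had 4192 normalized counts on soft, 4484 on intermediate and 2377 on stiff. The stiff library alone stood low, while the other libraries lay close together. The ratio of stiff to soft was -0.82 [-0.89, -0.74], a level 1.76-fold lower, and that of stiff to intermediate was -0.92 [-0.99, -0.84]. Itgb3 lies at chr11:104498826-104561302 (GRCm39, plus strand), and the canonical transcript of the gene holds 15 exons.

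Itgb1, the beta chain shared by most receptors for collagen, laminin and fibronectin, was the most abundant chain per kilobase in every library. It had 38397, 41186 and 43355 normalized counts, in the order soft, intermediate, stiff. The ratio of stiff to soft was 0.18 [0.16, 0.20], beyond counting error but far below 0.5. Itgb5, which like Itgb1 and Itgb3 can pair with Itgav, had 6009.6, 6416 and 6109 normalized counts. Its 3 libraries were nearly level, with a ratio of 0.02 [-0.03, 0.08] that became -0.03 when the libraries were scaled by total reads or by the upper quartile. The corrected ratio was -0.17.

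The alpha chains that bind collagen, the protein coating the plates, did not move together. Itga11, whose product binds fibrillar collagen and is found mainly on mesenchymal cells, had 669 normalized counts on soft, 979 on intermediate and 1329 on stiff. Each level was above the one before, and the stiff library was 1.99-fold above the soft, with a ratio of 0.99 [0.85, 1.13]. The lower step made up 55.5% of that log2 ratio. Itga11 lies at chr9:62585108-62691617 on the plus strand of GRCm39, with 30 exons. Itga1, which prefers the collagen of basement membranes, had 247, 297 and 386 normalized counts and a ratio of 0.64 [0.40, 0.88]. Itga2 had 109, 122 and 93.3 and a ratio of -0.22 [-0.64, 0.20], an interval that includes 0. Itga10, a collagen receptor best known from cartilage, had 26, 21 and 19 reads, too few to read a difference from, as its interval from -1.39 to 0.46 shows.

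Of the laminin-binding alpha chains, 2 of 3 were higher by at least 0.5, against 11.8% of all genes, and 2 of 3 by the corrected ratio, against 7.72%. Itga3 had 291, 327 and 544 normalized counts at 0.2, 8 and 64 kPa. Its stiff library stood apart from the others, and the ratio of stiff to soft was 0.90 [0.69, 1.11], or 0.53 corrected. Itga6 had 831, 919 and 1234 normalized counts and a ratio of 0.57 [0.44, 0.70]. Itga7, the laminin receptor chain known from muscle, had 198, 191 and 206, with a ratio of 0.06 [-0.23, 0.35], or -0.19 corrected.

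The alpha chains that bind the RGD sequence of fibronectin and vitronectin held the most abundant alpha chains per kilobase. Itga5, which pairs with Itgb1 as the classical fibronectin receptor, had 10131, 13088 and 17047 normalized counts. On the log2 scale the steps were nearly equal, and the lower one made up 49.2% of the ratio of stiff to soft. The ratio of stiff to soft was 0.75 [0.71, 0.79], a 1.68-fold difference, and the corrected ratio was 0.47, under the mark. Itga5 lies at chr15:103252713-103275270 on the minus strand of GRCm39, with 30 exons. Itgav had 7417, 8181 and 10745 normalized counts and a ratio of 0.53 [0.49, 0.58], which was 0.48 under total-read and upper-quartile scaling. It was thus higher on the stiff plate while its partner Itgb3 was lower. Itga8, which binds nephronectin, had 140.4, 115 and 155 normalized counts, with a ratio of 0.14 [-0.20, 0.49].

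The remaining alpha chains, Itga4 and Itga9, are close relatives that bind other ligands. Itga4, a receptor for VCAM and fibronectin that leukocytes carry, had 30, 51 and 75 reads. These counts are low, and the ratio of stiff to soft, 1.29, has a wide interval of [0.69, 1.98]. Of the 7 leukocyte chains outside the set, 5 were abundant enough to count and 4 of these were higher on stiff by at least 0.5. Itgb2 had 1557, 1997 and 3337 normalized counts, and Itgal had 272, 419 and 887. Itgb7 did not reach the mark, with 109.7, 143 and 117, and Itgae and Itgad had at most 9 reads in any library. Itga9, a receptor for tenascin, had 452, 459 and 570.2 normalized counts, with a ratio of 0.33 [0.15, 0.52] and a corrected ratio of 0.02.

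Per kilobase, the summed alpha chains stood at 3867, 4733 and 6196 normalized counts at 0.2, 8 and 64 kPa. The summed beta chains stood at 10193, 10922 and 10898. The alpha sum was therefore 37.9% of the beta sum on the soft, 43.3% on the intermediate and 56.9% on the stiff plate. Both sums leave out chains outside the set, such as Itgb2, which was higher on stiff, and Itgb8, which was not. Itga5 made up 59.8%, 63.1% and 62.8% of the alpha sum, and Itgav 25.9%, 23.4% and 23.5%, so the make-up of the alpha chains moved little while their sum was larger. Among the beta chains, Itgb1 made up 75.2%, 75.3% and 79.4% of the sum, and Itgb3 7.11%, 7.10% and 3.77%. Set against Itgav per kilobase, Itgb3 stood at 72.2%, 70.0% and 28.3%, and Itgb5 at 179.9%, 174.1% and 126.2%. Set against Itgb1, Itga5 stood at 30.2%, 36.3% and 45.0%. These shares are uncorrected, and the corrected ratios of stiff to soft, 0.47 for Itga5 and 0.23 for Itgb1, lay closer together than the uncorrected ones.

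**Figure D2:**
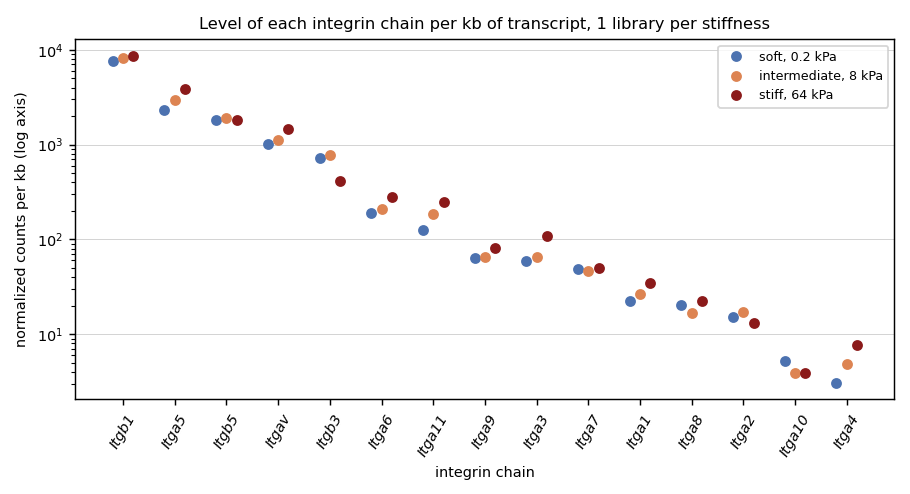
Level of each of the 15 integrin chains in normalized counts per kilobase of canonical transcript (log axis), ordered by the soft library; each point is 1 library. Itgb1 is highest in all 3 libraries (7663, 8219 and 8652), and Itgb3 is the abundant chain whose stiff point, 411, lies below the soft and intermediate points, 725 and 775.

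The linkers between integrin tails and actin included one of the strongest differences in the set. Talin 1 (Tln1), which binds the beta chain's tail, activates the integrin and carries force to actin, had 1415 normalized counts on soft, 2152 on intermediate and 3745 on stiff. The stiff library was 2.65-fold above the soft, with a ratio of 1.40 [1.31, 1.49] and a corrected ratio of 0.68. The lower step was 0.60 and the upper 0.80, and corrected they were 0.17 and 0.50. Tln1 lies at chr4:43531513-43562691 on the minus strand of GRCm39 and has 57 exons in a transcript of 8399 bases. Vinculin (Vcl), which binds stretched talin and reinforces its link to actin, had 5243, 5786 and 9290.0 normalized counts. Only the stiff library stood clearly higher, and 17.2% of the difference was present at 8 kPa. The ratio of stiff to soft was 0.83 [0.78, 0.88]. Vcl lies at chr14:20979449-21083758 on the plus strand of GRCm39, with 22 exons.

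The tensins, which join integrins to actin in the long fibrillar adhesions, gave 2 ratios above 0.5 and 1 below it. Tns1 had 1138, 1597 and 2253 normalized counts and a ratio of 0.98 [0.88, 1.09]. Tns2 had 616, 744 and 949 and a ratio of 0.62 [0.47, 0.77], and Tns3, the most abundant tensin per kilobase in each library, gave 0.38 [0.33, 0.43]. None of the 3 passed 0.5 by the corrected ratio, which was 0.18 for Tns1, 0.23 for Tns2 and -0.12 for Tns3. Fermt2, the kindlin that activates integrins together with talin, had 3715, 3692 and 4477 and a ratio of 0.27 [0.21, 0.33]. It differed less than talin did in these libraries.

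The complex of integrin-linked kinase, PINCH and parvin moved least among the groups inside the cell, with a median ratio of 0.21 over 4 members. Ilk, the pseudokinase at its centre and one of the most abundant members per kilobase, had 6536, 6259.6 and 7629.7 normalized counts and a ratio of 0.22 [0.17, 0.27]. Parva, the parvin that contacts actin, was the 1 member of the complex above 0.5, with 4625, 5139.6 and 6766 normalized counts and a ratio of 0.55 [0.49, 0.60]. Under total-read and upper-quartile scaling it was 0.49, and no member of the complex passed the mark. Of the PINCH proteins, Lims1 had 7489, 6943 and 6505 normalized counts and a ratio of -0.20 [-0.25, -0.15], lower at each step. Lims2 gave 0.19 [-0.05, 0.43], an interval that leaves its direction open.

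Of the 6 kinases and scaffolds, 3 were higher by at least 0.5, against 11.8% of all genes, and 1, Tgfb1i1, by the corrected ratio, against 7.72%. Tgfb1i1, a LIM domain scaffold related to paxillin that also acts in the nucleus, had 1442 normalized counts on soft, 1795 on intermediate and 2778 on stiff. It was 1.93-fold higher on the stiff than on the soft plate, with a ratio of 0.95 [0.85, 1.04]. Src, the tyrosine kinase that phosphorylates adhesion scaffolds, had 1106, 1310.4 and 1575 and a ratio of 0.51 [0.40, 0.62]. Bcar1, a Cas scaffold whose stretched domain is a Src substrate, had 1885, 2165 and 2705 and a ratio of 0.52 [0.43, 0.61]. Both lay just above the mark, and both were under it when corrected, at 0.10 for Src and 0.33 for Bcar1, and under total-read and upper-quartile scaling. Below it, Ptk2, which encodes FAK, gave 0.34 [0.24, 0.43] and the Cas relative Nedd9 gave 0.22 [0.05, 0.39]. Paxillin (Pxn), the scaffold that gathers these kinases, had 1723, 2150.3 and 2172 normalized counts. The steps were 0.32 from 0.2 to 8 kPa and 0.01 from 8 to 64 kPa, and corrected they were 0.14 and -0.15. The upper step was also below 0 under total-read and upper-quartile scaling.

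All 5 genes for proteins that crosslink actin or anchor it to the membrane were higher by at least 0.5, against 11.8% of all genes, with a median ratio of 1.08. By the corrected ratio 3 of the 5 (Flnc, Actn1 and Svil) were above that mark, against 7.72% of genes, and the median was 0.53. Filamin C (Flnc), the filamin typical of muscle, had 1372 normalized counts on soft, 2182 on intermediate and 3565 on stiff. The stiff library was 2.60-fold above the soft, with a ratio of 1.38 [1.29, 1.47], or 0.53 corrected. Flnc lies at chr6:29433072-29461887 on the plus strand of GRCm39, with 47 exons in a transcript of 9147 bases. Filamin A (Flna), the widely expressed filamin that also binds integrin tails, had 22169, 27044 and 40312 and a ratio of 0.86 [0.84, 0.89], or 0.18 corrected. Per kilobase, Flnc stood at 6.82%, 8.90% and 9.75% of Flna.

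The alpha-actinins differed in size of response. Actn1 had 6176, 7677 and 13989 normalized counts at 0.2, 8 and 64 kPa, 2.27-fold higher on stiff than on soft, with a ratio of 1.18 [1.14, 1.22]. Actn4 had 8879, 11079 and 13032 and a ratio of 0.55 [0.51, 0.59], which was 0.50 under total-read and upper-quartile scaling, just under the mark, and 0.41 corrected. Their intervals do not meet, and Actn1 stood per kilobase at 44.8%, 44.7% and 69.2% of Actn4, so the shift lay in the upper step. Supervillin (Svil), which ties actin and myosin to membranes, had 222, 339 and 471 normalized counts and a ratio of 1.08 [0.85, 1.32]. Acta1, the 1 skeletal muscle marker of 5 that was abundant enough to count, was also higher on the stiff plate. It had 168, 297 and 622 of the 177, 305 and 643 normalized counts to which the 5 markers summed. Ckm, Myh1, Tnnt3 and Myog had at most 12 reads in any library. The part of muscle transcripts in the ratio of Flnc was not tested.

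Among the 10 LIM domain and stress-fibre genes, 5 were higher by at least 0.5, against 11.8% of all genes, and 5 by the corrected ratio, against 7.72%. Fhl1, a LIM-only protein known from muscle and stress fibres, had the highest ratio of the set. It had 355 normalized counts on soft, 373 on intermediate and 1281 on stiff. The soft and intermediate libraries were level within counting error, at 0.07 [-0.14, 0.29], and the stiff library was 3.61-fold above the soft, at 1.85 [1.68, 2.03]. Only 3.98% of the difference was present at 8 kPa. Fhl1 lies at chrX:55777147-55838706 (GRCm39, plus strand), and the canonical transcript of the gene holds 6 exons. Its relative Fhl3 had 718, 853 and 1239.8 normalized counts and a ratio of 0.79 [0.65, 0.93], and Fhl2 had 1174, 1061 and 1492 and a ratio of 0.35 [0.23, 0.46].

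Zyxin (Zyx), which moves to adhesions and stress fibres under tension and helps repair them, had 5245, 6387 and 11503 normalized counts. The stiff library was 2.19-fold above the soft, with a ratio of 1.13 [1.09, 1.18]. Zyx lies at chr6:42301575-42339894 on the plus strand of GRCm39, with 10 exons. The other members of its family differed less: Lpp gave 0.42, or 0.21 corrected, and Trip6 0.12 [0.02, 0.22]. Vasp, the actin polymerase that zyxin recruits, gave 0.25, which was -0.0059 corrected. Csrp1, a LIM protein of smooth muscle and fibroblasts, had 4623, 4531 and 6723 normalized counts and a ratio of 0.54 [0.49, 0.60], or 0.48 under total-read and upper-quartile scaling. Pdlim7, a PDZ and LIM protein of stress fibres, had 1865, 1974 and 2861 and a ratio of 0.62 [0.53, 0.70]. Its relative Pdlim5 had 5625, 5251 and 7520.0, so its stiff library was above both others, by 0.42 over the soft and by 0.52 over the intermediate.

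**Figure D3:**
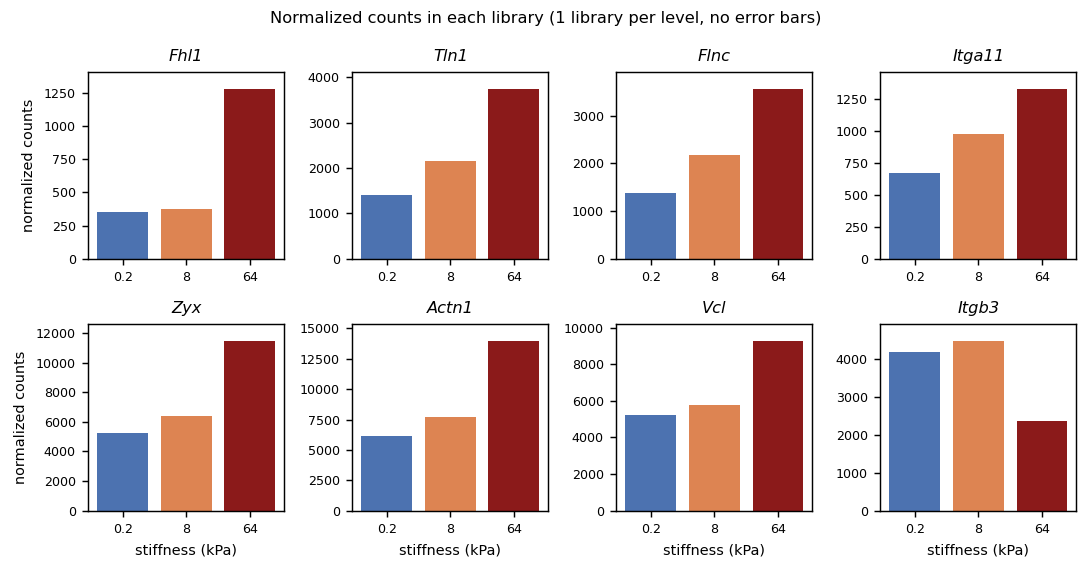
Normalized counts of 8 members in the soft (0.2 kPa), intermediate (8 kPa) and stiff (64 kPa) library, each bar 1 library with its axis starting at 0. Tln1, Flnc and Itga11 stand higher at each level, Fhl1 is level at 355 and 373 before 1281, and Itgb3 is lowest in the stiff library at 2377.

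The upper stiffness step carried more of the difference than the lower one. From 0.2 to 8 kPa, 35 of 45 members (77.8%) were higher, against 53.5% of all genes, with a median of 0.14, or 0.07 corrected. By at least 0.5, 5 members (11.1%) were higher in that step, against 3.94% of all genes, and 0 were lower, against 0.657%. They were Itga4, Itga11, Tln1, Flnc and Svil, of which Itga4 alone was past the mark by the corrected ratio. Itga4 rested on 30 reads on soft and 51 on intermediate, and the interval of its uncorrected ratio, [-0.03, 1.35], includes 0. By the corrected ratio, 28 members were above 0 in that step and 17 below it, with a median of all genes of -0.0012. From 8 to 64 kPa, 41 members (91.1%) were higher, against 51.1%, with a median of 0.38, or 0.30 corrected. By at least 0.5, 14 members (31.1%) were higher in that step, against 5.42%, and 1, Itgb3, was lower (2.22%), against 3.42%. The LIM domain group differed most between the steps, with a median of 0.06 and 0 of 10 members past 0.5 in the lower step, and 0.53 and 6 of 10 in the upper. The steps share the intermediate library, so its counting error enters both with opposite sign.

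Members that were higher by at least 0.25 in each step numbered 13 (28.9%), against 5.73% of all genes. They were Itga1, Itga4, Itga5, Itga11, Tln1, Zyx, Tns1, Tns2, Flna, Flnc, Actn1, Tgfb1i1 and Svil. By the corrected ratio 5 members did so, against 3.02% of genes: Itga4, Itga11, Fhl3, Tgfb1i1 and Svil. No member was lower by that much in each step, against 0.707% of all genes. In the plot of the lower step against the upper, Fhl1, Vcl, Itga3 and Csrp1 lie above 0.5 in the upper step and between -0.03 and 0.17 in the lower.

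**Figure D4:**
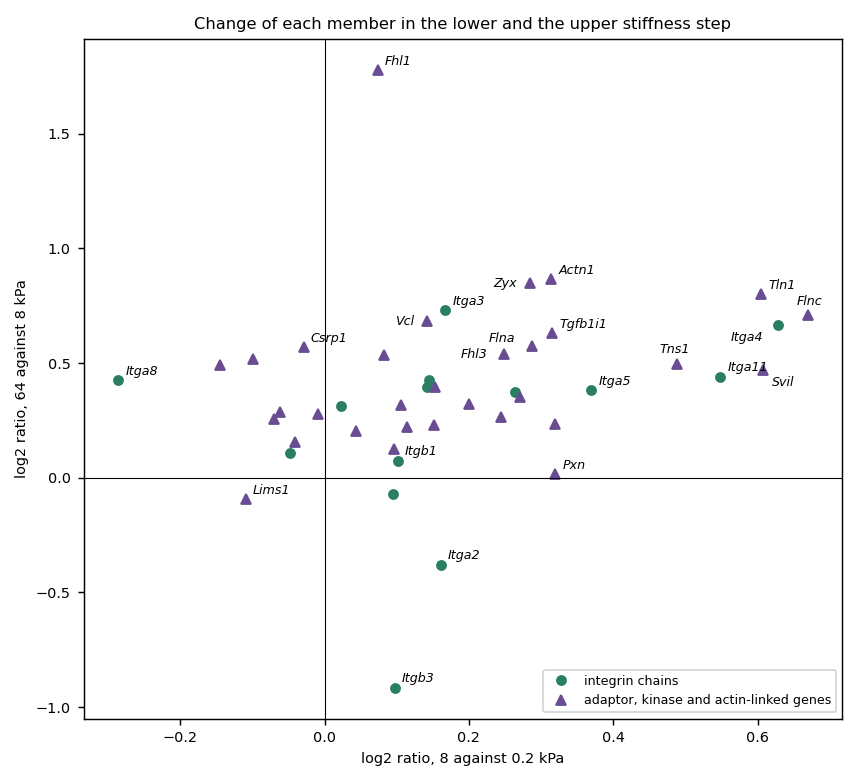
Log2 ratio of each of the 45 tested members in the lower step (8 against 0.2 kPa, x axis) and the upper step (64 against 8 kPa, y axis); circles are integrin chains and triangles the other members. Fhl1 is highest on the y axis at 1.78 with an x value of 0.07, Flnc is farthest right at 0.67, and Itgb3 is lowest at -0.92.

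A trend of the ratio with transcript length and GC content was fitted over 11655 genes, and the members are longer than most, with a median canonical transcript of 4768 bases against 3485 bases. Their median GC content was 52.7% against 50.1%. When the local trend of the ratio with length and GC content was subtracted, the members' median for stiff against soft was 0.33, and 18 of 45 were higher by at least 0.5, against 7.72% of 11655 genes. By sign, 37 members were above 0, against 50.2% of genes, and 8 below it: Itga2, Itga7, Itgb3, Itgb5, Pxn, Lims1, Tns3 and Vasp. The members that dropped below 0.5 were Itga5, Tns1, Tns2, Bcar1, Flna, Actn4 and Src. Several long transcripts moved far: Flna, of 10089 bases, went from 0.86 to 0.18, Tns1, of 10255 bases, from 0.98 to 0.18, Flnc from 1.38 to 0.53 and Tln1 from 1.40 to 0.68. Not all did: Itga1, of 11144 bases, moved from 0.64 to 0.55, while Src, of 4187 bases, moved from 0.51 to 0.10. Fhl1 stood at 1.94, Itga4 at 1.29, Actn1 at 0.97, Zyx at 0.94, Tgfb1i1 at 0.93, Vcl at 0.74 and Itga11 at 0.71 after subtraction. Itgb3 stood at -1.01. For intermediate against soft, 1 member, Itga4, was higher by at least 0.5 after subtraction, against 2.17% of genes. The counting interval of its uncorrected ratio in that step includes 0. The plot of ratios before and after subtraction shows which members leave the diagonal.

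**Figure D5:**
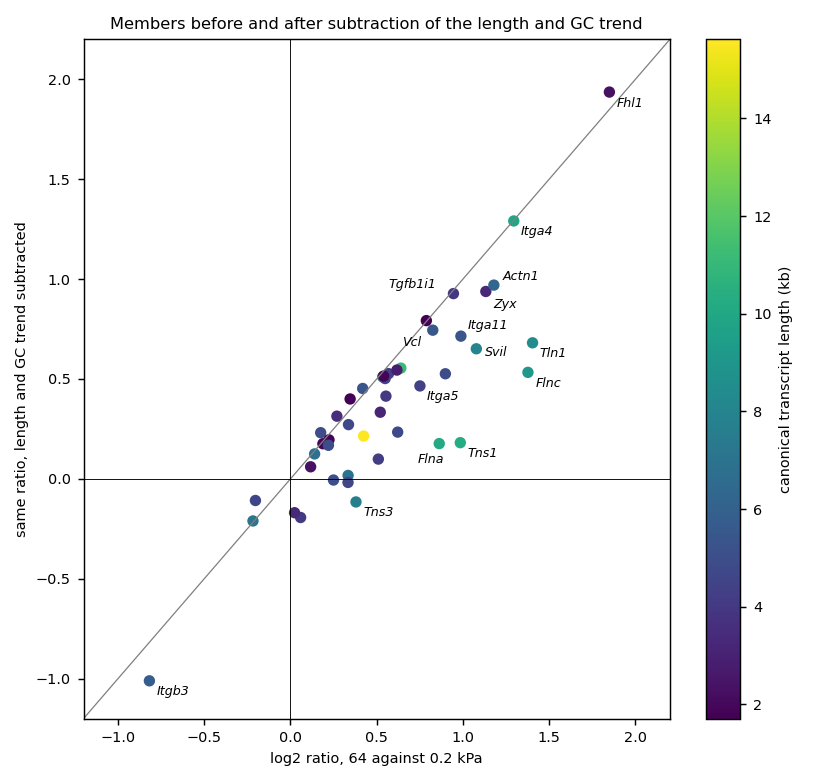
Log2 ratio of stiff against soft for each of the 45 tested members as deposited (x axis) and with the length and GC trend subtracted (y axis), coloured by canonical transcript length in kilobases; the grey line marks equal values. Fhl1 and Itga4 lie close to the line, while Flna (0.86 and 0.18), Tns1 (0.98 and 0.18), Flnc and Tln1 lie well below it.

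Promoters were examined because serum response factor, which binds the CArG box, and TEAD factors, which bind CATTCC, are known to act on genes of the cytoskeleton when cells spread and pull. The RefSeq table for GRCm38.p6 held 48 promoters of 37 members, each 250 bases before to 50 after a gene's start. A CArG box was found in 6 of the 48 (12.5%) and in 1.63% of all 32851 promoters. It belonged to 5 members, Vcl, Fhl1, Fhl2, Fermt2 and Trip6. CATTCC, on either strand, was found in 9 of 48 (18.8%) and in 14.7% of all promoters. A match is a description of these letters and not a shown binding site. The 250 bases before the start are printed for Fhl1, the member with the highest ratio, for Vcl, and for both starts of Fhl2, with the CArG box in capitals, 5′ to 3′ on the gene's strand.
Fhl1, chrX:56779433-56779682, plus strand: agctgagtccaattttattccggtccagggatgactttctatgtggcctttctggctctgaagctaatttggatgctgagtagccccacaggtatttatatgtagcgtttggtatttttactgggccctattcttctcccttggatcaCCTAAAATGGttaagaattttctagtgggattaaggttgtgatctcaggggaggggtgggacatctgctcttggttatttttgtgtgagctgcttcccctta
Vcl, chr14:20929148-20929397, plus strand: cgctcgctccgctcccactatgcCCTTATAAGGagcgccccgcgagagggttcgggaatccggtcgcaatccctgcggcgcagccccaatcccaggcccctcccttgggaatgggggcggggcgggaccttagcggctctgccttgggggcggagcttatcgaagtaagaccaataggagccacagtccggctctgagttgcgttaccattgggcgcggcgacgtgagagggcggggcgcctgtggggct
Fhl2, chr1:43196762-43197011, minus strand: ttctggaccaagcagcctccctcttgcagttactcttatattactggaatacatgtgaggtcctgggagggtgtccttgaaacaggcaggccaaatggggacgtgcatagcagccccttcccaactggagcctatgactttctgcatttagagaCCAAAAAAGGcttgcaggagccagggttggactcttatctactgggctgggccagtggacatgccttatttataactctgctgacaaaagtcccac
Fhl2, chr1:43163962-43164211, minus strand: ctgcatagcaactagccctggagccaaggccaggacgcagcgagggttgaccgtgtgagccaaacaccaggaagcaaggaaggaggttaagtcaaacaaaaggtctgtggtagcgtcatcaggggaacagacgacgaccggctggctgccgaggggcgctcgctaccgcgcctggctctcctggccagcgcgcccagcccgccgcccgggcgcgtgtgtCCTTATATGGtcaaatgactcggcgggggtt

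The box begins 102 bases before the start in Fhl1, 227 in Vcl, and 96 and 31 in the 2 starts of Fhl2. The 5 members with a box did not share a size of difference: the ratio of stiff to soft was 1.85 for Fhl1 and 0.83 for Vcl, but 0.35 for Fhl2, 0.27 for Fermt2 and 0.12 for Trip6. Among members with CATTCC, Flnc stood at 1.38 and Itgb1 at 0.18.

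Other genes of the adhesion pathway, 58 in all, gave a milder picture. Of the 48 with a sufficient mean, 32 were higher on stiff than on soft, against 51.1% of all genes, with a median of 0.30. By at least 0.5, 11 were higher, against 11.8%, and 0 were lower, against 3.77%. Among the 11 were Tln2, Nexn, Palld, Sorbs3, Git1, Ptk2b, Rapgef1, Asap1 and Capn2. By the corrected ratio 4 of these were under the mark, with -0.14 for Tln2, -0.03 for Rapgef1, 0.40 for Sorbs3 and 0.36 for Git1. Palld, which encodes the stress-fibre protein palladin, had 2214, 2726 and 5673 normalized counts and a ratio of 1.36, or 1.12 corrected. The collagen receptors that are not integrins differed less, with 0.44 for Ddr1, or 0.09 corrected, and -0.09 for Ddr2. Fermt1, the epithelial kindlin, was listed at 0 in all 3 libraries.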

How the data were processed

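Bulk RNA of 3 libraries, 1 per stiffness level, was prepared with TruSeq Stranded mRNA, per the labels' protocols. The submitters' processing notes name bcl2fastq 2.20.0, STAR 2.7.9a, featureCounts, Subread 2.0.1, DESeq2 1.34.0 and the build GRCm39. The annotation used for counting is not given in the sources used here. The deposited values are a signal, reads per gene that the authors had scaled by 1 factor in each library, and the 3 files hold the same table. In each column 100% of positive values were whole multiples of the smallest (tolerance 0.01 reads), 1 read being 1.03 (soft), 0.943 (intermediate) and 1.03 (stiff) normalized counts. A count of 0 allows up to 3 reads.

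Log2 ratios used a pseudocount of 1, which understates differences of low genes, and a minimum mean of 50. Count tests need replicates and were not made. Lengths and GC contents came from GENCODE vM39 canonical transcripts matched by symbol (11655 of 11873 genes). The trend was estimated at each gene by robust local regression on its 300 neighbours in length and GC content. Counting and fit were tested on simulated data. Near-identical gene copies could share reads. Values were named for members past 0.5 in any comparison, for integrin chains, and for the most abundant members per kilobase. They were also named for Pxn, Fermt2, Lims1 and Fhl2, and the rest are given by ratio. The members and the lists were chosen with earlier results of these data known. Alternatives were other pseudocounts, minimum means, thresholds, 4 scalings and the trend. Python 3.11.15, scipy 1.17.1, R 4.3.3 and edgeR 4.0.16 (TMM and upper-quartile scaling only) were used. Values of 2 further pathway genes are not reported here.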

Additional observations from a re-analysis of the deposited data

How the results depend on the processing

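The median for stiff against soft was 0.53 as reported and 0.33 with the length and GC trend subtracted. Under that trend 1 member was higher by at least 0.5 for intermediate against soft, in place of 5, and 5 in place of 13 were higher by at least 0.25 in each step. At a threshold of 1, 7 members were higher and 0 lower for stiff against soft, 0 were higher for intermediate against soft (0.16% of all genes), and 1 was higher (0.825%) and 0 lower (0.421%) for stiff against intermediate. At 0.5 per step, 3 members were higher in each step, against 1.04% of all genes. The count of 25 members higher for stiff against soft was 19 under total-read and upper-quartile scaling, which lost Itgav, Parva, Bcar1, Actn4, Csrp1 and Src, 18 under the trend and 24 with a minimum mean of 200. The cause was not tested. No member ratio for stiff against soft that reached 0.5 in size changed sign under the scalings, pseudocounts or the trend. Leaving out a library was not run, since each level has 1. Reads limit Itga10, Itga4, Itga2, Itga7 and Itga8 most, as their intervals show.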

Other observations

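Markers of further cell types, read beside the adhesion genes, gave these values in the soft, intermediate and stiff library. The 6 fibroblast markers summed to 185290, 227842 and 277230 normalized counts, with a median ratio of stiff to soft of 0.04, and 1 of them, Col1a1, was higher by at least 0.5, at 0.95, but at 0.42 when corrected for transcript length and GC content. The 6 mural cell markers summed to 2367, 3277 and 3138, and 2 of the 4 abundant enough to count, Cspg4 and Mcam, were higher by at least 0.5, though Cspg4 went from 0.53 to -0.27 when corrected for transcript length and GC content. The 4 platelet markers summed to 6107, 6633 and 9455, mostly Pf4 with 4794, 5252 and 7553, and Gp9 was listed at 0. Itga2b, the platelet partner of Itgb3, was not higher on stiff, with 78, 98 and 63 reads and a ratio of stiff to soft of -0.30 [-0.81, 0.19], an interval that includes 0. Itgb8, a further partner of Itgav that was not in the set, had 199, 238 and 162 normalized counts and a ratio of -0.29 [-0.61, 0.01] for stiff against soft, an interval that includes 0. Wtip, a zyxin-related LIM gene outside the set, had 1100.0, 1105 and 781 normalized counts and a ratio of -0.49 for stiff against soft.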
